A study of Mus musculus with 8 samples.

Results

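OT-I T cells are CD8+ T cells that carry a transgenic receptor for an ovalbumin peptide. RNA of such cells was sequenced in 2 separate experiments, and the culture of experiment 2 is compared here with that of experiment 1. Experiment 2 holds 4 of the 8 labelled samples and 2 of the 4 deposited columns of counts. All mice were OT-I:Rosa26-Cas9, a cross of Rag2/OT-I with Rosa26-Cas9 mice that express the Cas9 nuclease constitutively, and the labels give neither age nor sex. Per the study's methods, T cells from lymphoid organs were activated with beads against CD3 and CD28 and grown in IL-2, IL-7 and IL-15. A lentivirus then brought in the reporter CD90.1 and either a non-targeting guide (sgNT, labelled control) or a guide against Elovl1 (sgElovl1, labelled Elovl1 KO), and CD90.1+ cells were sorted 3 days later. Experiment 1 comprised 2 sgNT and 2 sgElovl1 replicates, and experiment 2 did as well. The authors summed the 2 replicates of each group, so that each group is 1 column and has no SD. The labels name no difference between the experiments other than their number, and mice, culture, sort, library and sequencing cannot be told apart. Cultured, bead-activated and vector-bearing cells are a limited model of T cells in tissue.

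When a resting CD8 T cell is activated, signals from its receptor and from IL-2 raise the transcription factor Myc and the hypoxia-inducible factor HIF1. Glucose uptake, glycolysis, amino acid transport, nucleotide synthesis and ribosome production then rise, and the cell divides and makes granzymes. Cells that leave this state, or that are kept on IL-7 and IL-15, regain genes of resting and memory cells such as Tcf7, Ccr7 and Il7r. Type I interferon acts through STAT2 and IRF9 on a set of antiviral genes, part of which T cells also express without added interferon.

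All genes with at least 1 CPM (counts of a gene per 1000000 counts of the column) of the column total in 2 or more columns were compared, which were 12527 of 56805 genes. Column totals were 63623476 (sgNT) and 51621372 (sgElovl1) in experiment 1 and 49068952 and 57341720 in experiment 2, and a count of 0 allowed up to 0.0472 to 0.0611 CPM (3 counts, counting error only). CPM values of genes are after TMM scaling and stand for sgNT first and sgElovl1 second. A log2 fold change (log2 FC) is that of experiment 2 against experiment 1 with the guide as a term, so that a negative value means lower in experiment 2. Adjusted p-values are from edgeR's quasi-likelihood test with Benjamini-Hochberg adjustment over all genes tested, and a gene is called higher or lower at an adjusted p under 0.05. The standard error (SE) and the p rest on a spread pooled over genes, a biological coefficient of variation of 6.37%. With guide and experiment as terms the 4 columns leave 1 residual degree of freedom. That spread is how far the 2 guides disagree on the experiment difference, and not the spread between repeated experiments. For a single gene, an exact two-sided permutation test of 2 against 2 columns cannot go below p = 0.333.

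The targeted gene went with the guide labels in both experiments. Elovl1 lay at 109 CPM in sgNT and 61.2 CPM in sgElovl1 cells of experiment 1, and at 94.3 and 56.1 CPM in experiment 2. Of 13 CD8 T cell markers 8 were called higher in experiment 2 and 3 lower (median log2 FC 0.34). The lower ones were Trac (1052 and 1031 CPM in experiment 1 and 761 and 713 CPM in experiment 2, log2 FC -0.50), Thy1 (-0.55), whose counts may hold reads of the CD90.1 reporter, and the segment Trbv12-1 (-0.32). The CD8 coreceptor genes Cd8a and Cd8b1 were high in every column and called higher in experiment 2, with log2 FC of 0.50 and 0.49, and Cd3e lay between 421 and 454 CPM in all columns (log2 FC 0.06, adjusted p = 0.401). Trbv12-1 held 99.3 to 99.6% of the counts of the 35 beta segments in each column. Alpha segments showed no such dominance, as 860 to 1255 counts per column fell on 130 segments and the top one (Trav21-dv12 or Trav3-3) held 9.3 to 13% of them. These counts were few beside Trac, which had 37715 to 67606 counts per column. The alpha shares therefore say little about the transgenic receptor of the cells. Where reads of its alpha chain were counted was not tested. Among 12 listed B cell and plasma cell genes only 3 passed the filter, and Ms4a1, Igkc and Blnk were at 0 throughout. Ighm (390.2 and 426 CPM in experiment 1 and 735 and 817 CPM in experiment 2, log2 FC 0.93) and Ighd (1.78) were called higher. The summed level of the list went from 407 and 449 to 764 and 811 CPM of the column total, and most of it was Ighm. Among 19 myeloid and dendritic genes C1qa, C1qb, C1qc, S100a8, S100a9 and Siglech were at 0 and Lyz2 had at most 1 count per column, with summed levels of 27.2 and 31.6 CPM in experiment 1 and 37.5 and 33.2 CPM in experiment 2. Within that list Itgax (2.91 and 2.94 CPM in experiment 1 and 16.1 and 12.7 CPM in experiment 2) and Itgam were called higher, and H2-Ab1 (10.5 and 11.9 CPM in experiment 1 and 3.13 and 2.31 CPM in experiment 2) was called lower. Cd4 had at most 0.114 CPM in a column and Foxp3 rose from 4.22 and 5.45 to 8.74 and 10.6 CPM, in a CD4 and regulatory T cell list whose sum was 81.8 and 78.6 against 105 and 108 CPM. The summed NK and gamma-delta list lay at 498 to 520 CPM in all columns with Ncr1 at 0, but its 2 most abundant members moved in opposite directions. Trdc was called higher (255 and 276 CPM in experiment 1 and 335 and 375 CPM in experiment 2, log2 FC 0.42). Eomes, also in the memory list below, was called lower (251 and 229.6 CPM in experiment 1 and 154 and 157 CPM in experiment 2, -0.63). Red cell and platelet genes summed to 0.252 to 0.419 CPM. The part of such cells in the differences below was not tested, and in bulk RNA fewer cells of a type cannot be told apart from less RNA per cell. Ddx3y had no count in any column, whereas Xist lay at 689 and 758 CPM in experiment 1 and 1106 and 1051 CPM in experiment 2.

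The experiments differed widely, and mostly in the same direction in both guides. Of the 12527 genes tested, 4126 (32.9%) were called higher in experiment 2 and 4379 (35%) lower. At a fold of at least 2 in each guide, 699 genes (5.58%) were higher and 560 (4.47%) lower. The median absolute log2 FC was 0.415 between the experiments, and 0.09 between the guides in the same fit. Among 8505 called genes 8492 had the same direction in the sgNT pair and in the sgElovl1 pair of columns, which come from different replicates. The test calls a gene mainly where the 2 pairs agree, so this count was largely fixed by the call. Over all genes tested, the log2 ratios of the 2 pairs differed by a median of 0.136, with 0.774 at percentile 95. Across the 12527 genes the log2 ratios of the 2 pairs had a Pearson r of 0.882, as a description over genes that are not independent replicates, and pairs of one experiment may share their day and handling. In 82% of all genes tested the columns of the 2 experiments did not overlap (5038 higher and 5230 lower in experiment 2). A lack of overlap, given for some genes below, therefore does not set a gene apart. Because so many genes were called, the programmes below are described by the share of members called, set beside 32.9% higher and 35% lower, and by the median log2 FC, set beside -0.00802 for all genes.

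**Figure D1:**
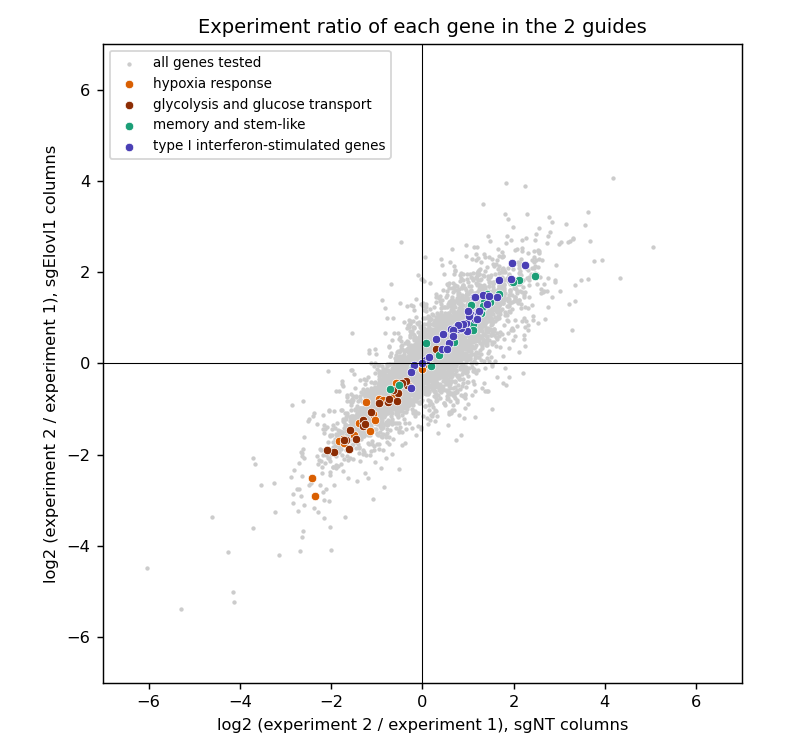
Each grey point is 1 of the 12527 genes tested, with the log2 ratio of experiment 2 to experiment 1 in the sgNT columns (x axis) and in the sgElovl1 columns (y axis), and coloured points are members of 4 lists. Hypoxia and glycolysis genes lie mostly at the lower left, and memory and type I interferon-stimulated genes mostly at the upper right, in both guides.

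**Figure D2:**
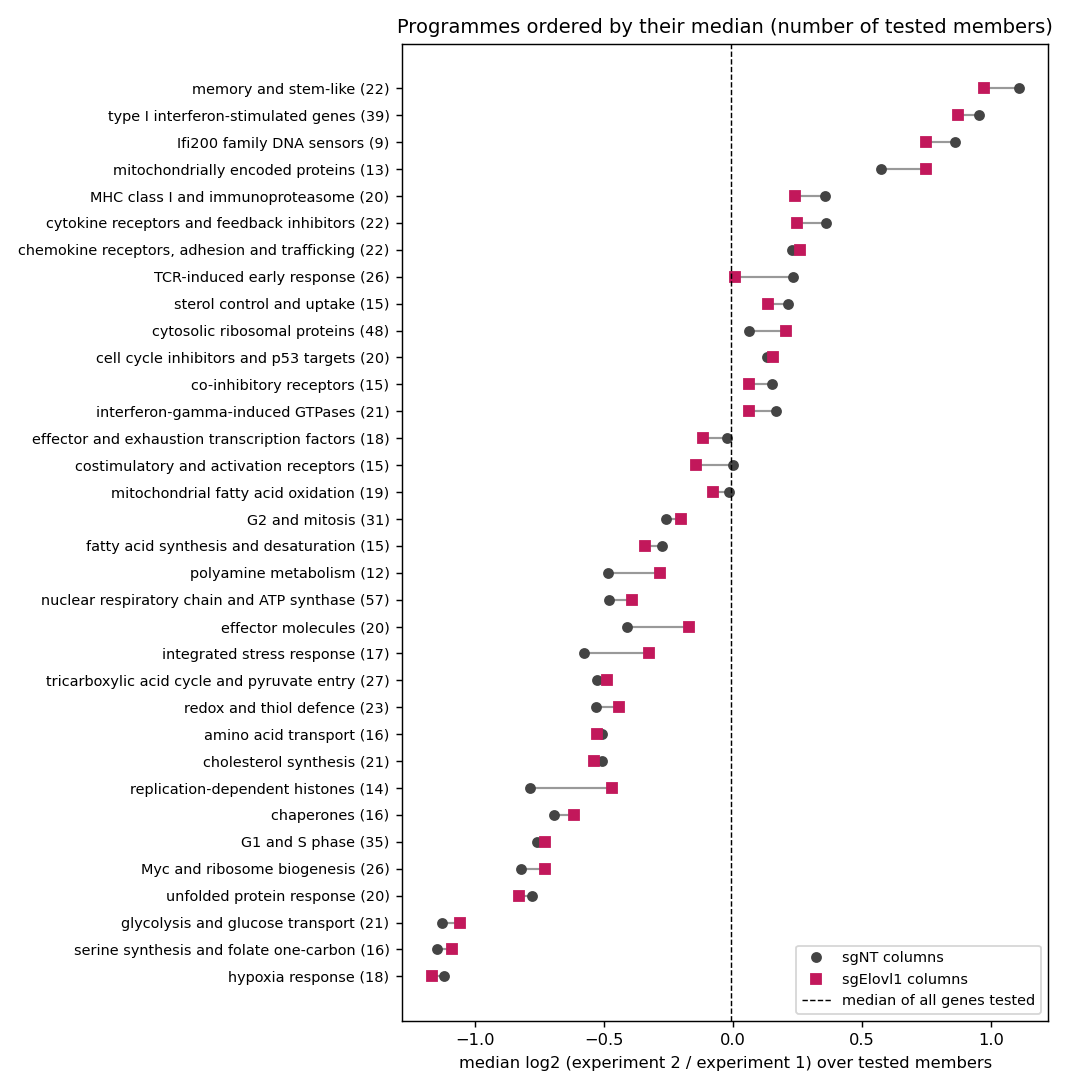
Median log2 ratio of experiment 2 to experiment 1 over the tested members of each programme, with the sgNT columns as circles and the sgElovl1 columns as squares, the number of tested members in brackets and a dashed line at the median of all genes. Hypoxia, one-carbon and glycolysis lists lie below -1 and the memory list near 1 in both guides, while effector molecules, the integrated stress response, histones and T cell receptor-induced genes differ most between the guides.

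The genes of glycolysis were lower in experiment 2 almost as a whole. Of 21 members 20 were called lower (95.2%) and 1 higher, the median log2 FC was -1.09, and 11 were at least 2-fold lower in both guides. Hk2, the hexokinase that activated T cells induce to trap glucose, lay at 57.4 and 48.0 CPM in experiment 1 and 15.1 and 12.5 CPM in experiment 2, which was 3.82-fold lower (log2 FC -1.94, SE 0.08, adjusted p = 1.35e-121). Tpi1, the triose phosphate isomerase, lay at 1319 and 1012 CPM in experiment 1 and 308 and 272 CPM in experiment 2 (log2 FC -2.00, SE 0.07, adjusted p = 9.81e-167). Both genes were low in both columns of experiment 2 and did not overlap between the experiments, as was the case for 82% of all genes tested. Eno1, the enolase, lay at 2813 and 2549 CPM in experiment 1 and 860.5 and 793 CPM in experiment 2 (log2 FC -1.70, SE 0.08, adjusted p = 7.38e-94). Ldha, which turns pyruvate into lactate, lay at 2385 and 2136 CPM in experiment 1 and 798 and 776 CPM in experiment 2 (log2 FC -1.52, SE 0.08, adjusted p = 3.06e-80). The lactate exporter Slc16a3 fell 3.36-fold, from 150.3 and 161 to 49.1 and 43.7 CPM. The glucose transporter Slc2a1 moved less, by a log2 FC of -0.80 (SE 0.06). The single member called higher was Pfkfb4 (log2 FC 0.31), an isoform of the enzyme that sets the level of fructose 2,6-bisphosphate.

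Targets of HIF1 outside glycolysis were lower too. In the hypoxia list 15 of 18 genes were called lower (83.3%) and none higher, with a median log2 FC of -1.12 and 10 at least 2-fold lower in both guides. Bnip3, a mitophagy receptor, lay at 162 and 163 CPM in experiment 1 and 30.2 and 28.6 CPM in experiment 2 (log2 FC -2.47, SE 0.07, adjusted p = 2.74e-277). Ak4, a mitochondrial adenylate kinase, lay at 21.8 and 25.3 CPM in experiment 1 and 4.22 and 3.36 CPM in experiment 2 (log2 FC -2.64, SE 0.13, adjusted p = 1.28e-94). These 2 genes were among the 12 largest decreases at a mean of at least 5 CPM, and for each the columns of experiment 1 stood several-fold above those of experiment 2. The collagen prolyl hydroxylase P4ha2 fell 3.39-fold (log2 FC -1.76) and Ero1a, which oxidises thiols in the endoplasmic reticulum, 3.33-fold (-1.74). Exceptions were Kdm3a (-0.06), Ddit4 (0.06) and Car9 (-0.52), which did not pass the threshold with adjusted p of 0.354, 0.463 and 0.24.

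The DNA before Bnip3 and Hk2 is shown because HIF1 is known to bind a core of ACGTG, which was searched on both strands in windows from 250 bases before to 50 bases after each start (RefSeq, build GRCm38.p6). Capitals mark each match, and in Bnip3 a match on each strand overlaps so that both lie in CACGTG, the E-box letters. The window of Bnip3 is chr7:138909457-138909756, minus strand, and that of Hk2 is chr6:82774405-82774704, minus strand.
Bnip3: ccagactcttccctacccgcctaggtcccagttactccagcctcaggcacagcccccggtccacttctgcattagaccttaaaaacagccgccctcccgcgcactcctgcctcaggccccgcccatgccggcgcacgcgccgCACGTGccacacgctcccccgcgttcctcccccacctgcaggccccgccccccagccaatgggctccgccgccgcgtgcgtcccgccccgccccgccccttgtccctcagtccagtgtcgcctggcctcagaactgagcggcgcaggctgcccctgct
Hk2: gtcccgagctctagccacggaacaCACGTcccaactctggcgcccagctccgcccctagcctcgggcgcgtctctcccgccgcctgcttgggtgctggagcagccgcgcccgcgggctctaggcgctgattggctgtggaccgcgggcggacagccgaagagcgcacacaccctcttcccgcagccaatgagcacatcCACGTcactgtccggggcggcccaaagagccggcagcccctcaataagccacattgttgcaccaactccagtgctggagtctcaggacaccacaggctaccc
Of 18 tested hypoxia genes 16 matched a window by symbol and 14 of these (87.5%) held the core, and of 21 tested glycolysis genes 20 matched and 14 (70%) held it. Over all 32851 promoter windows 19.6% held ACGTG, and over the 9174 tested genes with a window 29.8% did in at least 1 of them. Among the 2730 tested genes with the core, 27.8% were called higher and 42.5% lower, beside 32% and 37.5% of all tested genes with a window. Of the genes named above, Tpi1 had no match in its window, and Ak4 had matches only in window 4 of its windows, ordered by position. A match is a description of the letters and not a bound site.

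Mitochondrial metabolism split by genome. Of 27 genes of the tricarboxylic acid cycle and pyruvate entry 25 were called lower (92.6%) and 2 higher, with a median log2 FC of -0.46. Pcx, pyruvate carboxylase, which refills the cycle with oxaloacetate, lay at 26.8 and 23.9 CPM in experiment 1 and 5.37 and 5.79 CPM in experiment 2 (log2 FC -2.18, SE 0.11, adjusted p = 2.85e-78). Both columns of experiment 2 held less than the lower column of experiment 1. Pdk3 and Pdp1, a kinase and a phosphatase that act on pyruvate dehydrogenase, were lower by log2 FC of -1.31 and -1.19, whereas Pdk2, another such kinase, was higher at 1.02 from a low level of 2.07 and 2.56 CPM. Of 57 nuclear genes of the respiratory chain and ATP synthase 41 were lower (71.9%) and 7 higher, with a median of -0.43. Subunits of ATP synthase led them, with Atp5g1 at -1.27 (SE 0.07) and Atp5l at -1.19 (SE 0.06), followed by the electron carrier Cycs at -1.11.

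The 13 proteins encoded by the mitochondrial genome went the other way, with all 13 transcripts called higher and a median log2 FC of 0.66 (0.393 without sgElovl1 of experiment 2 and 0.999 without sgNT of experiment 2). Mitochondrial transcripts took 7.72% (sgNT) and 9.72% (sgElovl1) of the counts in experiment 1 and 10.2% and 14.3% in experiment 2. Within each guide the share was higher in experiment 2, while sgElovl1 of experiment 1 lay close to sgNT of experiment 2. mt-Co1, a core subunit of complex IV, lay at 30714 and 39184 CPM in experiment 1 and 45195 and 66794 CPM in experiment 2 (log2 FC 0.66, SE 0.15, adjusted p = 1.76e-05), with the highest value in sgElovl1 of experiment 2. mt-Atp6, a subunit of ATP synthase, lay at 19.1 and 31.1 CPM in experiment 1 and 43.6 and 62.3 CPM in experiment 2 (log2 FC 1.09, SE 0.07, adjusted p = 3.79e-47). Without the sgElovl1 column of experiment 2 5 of the 13 were called higher. Nuclear copies of mitochondrial DNA can take or lose such reads, so that levels of members such as mt-Atp8 and mt-Atp6 are uncertain. Levels far below mt-Co1 were also found for mt-Co2 (25.6 to 79.9 CPM over the columns) and mt-Co3 (26.6 to 75.9 CPM). Those of mt-Nd3 and mt-Nd4l were lower still, and all of these are uncertain too. The largest log2 FC of the 13 were in such low members (mt-Atp8 1.93, mt-Atp6 1.09, mt-Co2 0.98), which enter the count and the median.

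Genes of cholesterol synthesis were mostly lower. Of 21 cholesterol synthesis genes 17 were called lower (81.0%) and 2 higher, with a median log2 FC of -0.53. Idi1, which isomerises isopentenyl diphosphate, lay at 51.0 and 45.9 CPM in experiment 1 and 14.9 and 13.2 CPM in experiment 2 (log2 FC -1.79, SE 0.08, adjusted p = 3.1e-102). Hmgcs1, which makes the precursor of mevalonate, lay at 305 and 281 CPM in experiment 1 and 143 and 134 CPM in experiment 2 (log2 FC -1.08, SE 0.06, adjusted p = 1.63e-67). Both genes were lower in both guides without overlap. In the list of sterol control and uptake 9 of 15 were higher and 3 lower (median 0.17). Abcg1, a sterol exporter under the liver X receptors, rose 2.54-fold, from 30.7 and 29.9 to 74.4 and 79.4 CPM. Mylip, a ubiquitin ligase that answers to the same receptors, had a log2 FC of 0.98 (SE 0.10), and Nr1h2, which encodes one of these receptors, 0.77 (SE 0.06). Scarb1, a receptor for HDL, was lower at -1.01 (SE 0.08).

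In fatty acid synthesis and desaturation 10 of 15 genes were called lower (66.7%) and 1, Acss2, higher (median -0.27, with -0.427 and -0.174 when the sgElovl1 column of experiment 1 or of experiment 2 was left out). Scd1, which desaturates stearate, lay at 173 and 154 CPM in experiment 1 and 75.9 and 59.2 CPM in experiment 2 (log2 FC -1.28, SE 0.06, adjusted p = 1.02e-89). Fasn, the fatty acid synthase, had a log2 FC of -0.87 (SE 0.06) and Fads2, a desaturase of polyunsaturated fatty acids, of -0.82 (SE 0.06). Elovl1 itself differed little between the experiments within a guide, with a log2 FC of -0.17 (SE 0.06, adjusted p = 0.015), and that call was lost under 6 of the alternative settings. Mitochondrial fatty acid oxidation showed no common direction, with 5 higher and 8 lower of 19 and a median of -0.12 (from -0.116 to -0.0353 over the settings), with 5 lower and a median of -0.0703 when sgElovl1 of experiment 2 was left out. Its largest called members were Hadhb (-0.75) and Etfa (-0.68), lower, and Etfb (0.46), higher, where Etfa and Etfb encode the 2 subunits of 1 electron carrier.

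Genes that feed biosynthesis with carbon and nitrogen were among those with the lowest medians. Of 16 genes of serine synthesis and folate one-carbon metabolism 13 were called lower (81.2%) and 1 higher, with a median log2 FC of -1.12 and 9 at least 2-fold lower in both guides. Shmt1, the cytosolic serine hydroxymethyltransferase, lay at 35.4 and 37.6 CPM in experiment 1 and 8.6 and 8.88 CPM in experiment 2 (log2 FC -2.06, SE 0.09, adjusted p = 4.13e-102). Mthfd1, a cytosolic enzyme of the folate cycle, lay at 80.5 and 73.0 CPM in experiment 1 and 23.1 and 21.1 CPM in experiment 2 (log2 FC -1.80, SE 0.07, adjusted p = 2.78e-129). Neither gene overlapped between the experiments. Phgdh, the first enzyme of serine synthesis, was lower by less, at a log2 FC of -0.99 (SE 0.06), and Gart and Atic of purine synthesis stood at -1.37 and -1.44.

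Asns, which makes asparagine, lay at 78.2 and 64.3 CPM in experiment 1 and 18.5 and 15.3 CPM in experiment 2 (log2 FC -2.08, SE 0.08, adjusted p = 8.83e-159), the largest difference at a mean of at least 5 CPM in the list of the integrated stress response. That list was mixed, with 11 of 17 lower (64.7%), 2 higher and a median of -0.45, which was -0.241 without sgNT of experiment 1 and -0.225 at a mean of at least 5 CPM. Eif4ebp1, an inhibitor of translation initiation, was lower at -1.28, while Ddit3, the stress factor CHOP, was higher at 0.83 (from 24.8 and 20.5 to 39.0 and 41.4 CPM), as was Ppp1r15a (0.67), which ends the response by directing a phosphatase to eIF2. Atf4, the factor that drives the response, had a log2 FC of -0.26 (SE 0.06). The promoter of Asns is shown for the element TGATGNAA, to which ATF4 and its C/EBP partners are known to bind, with the match in capitals (chr6:7693160-7693459, minus strand).
Asns: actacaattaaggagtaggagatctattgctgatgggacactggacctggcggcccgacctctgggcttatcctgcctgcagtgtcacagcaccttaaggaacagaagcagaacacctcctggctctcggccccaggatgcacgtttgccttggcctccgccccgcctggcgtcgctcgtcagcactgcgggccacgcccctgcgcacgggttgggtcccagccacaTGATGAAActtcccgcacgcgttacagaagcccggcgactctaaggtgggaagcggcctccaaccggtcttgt
The element was in 7 of 16 matched genes of that list (43.8%) and in 2.76% of tested genes with a window (3.97% of all windows). In the amino acid transport list it was in 1 of 12 matched genes (8.33%). Over the 253 tested genes with the element 32.4% were called higher and 36% lower, close to the shares over all tested genes with a window.

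Amino acid transport genes were lower in 10 of 16 cases (62.5%) and higher in 3, with a median log2 FC of -0.52 (-0.326 at a mean of at least 5 CPM). Slc7a5, the subunit of the exchanger that brings in leucine, lay at 206 and 175 CPM in experiment 1 and 64.6 and 59.1 CPM in experiment 2 (log2 FC -1.62, SE 0.06, adjusted p = 1.39e-139). Bcat1, the cytosolic enzyme that transaminates leucine, isoleucine and valine, lay at 45.9 and 30.6 CPM in experiment 1 and 9.89 and 8.13 CPM in experiment 2 (log2 FC -2.07, SE 0.09, adjusted p = 1.32e-105). Glutamine carriers did not follow, as Slc1a5, Slc38a1 and Slc38a2 had log2 FC of 0.00, 0.03 and 0.03 and were not called (adjusted p of 0.999, 0.627 and 0.667). Polyamine genes were lower in 8 of 12 cases (5 without sgNT of experiment 2), with a median of -0.36. Srm, spermidine synthase, lay at 109 and 85.2 CPM in experiment 1 and 23.3 and 19.2 CPM in experiment 2 (log2 FC -2.19, SE 0.07, adjusted p = 8.6e-193), and Odc1, which makes putrescine, was lower by a log2 FC of -0.97. Sat1, which breaks polyamines down, was higher at 0.68 (SE 0.08). Redox genes were lower in 18 of 23 cases (78.3%), led by the peroxiredoxin Prdx1 (604 and 590.2 CPM in experiment 1 and 224 and 217 CPM in experiment 2, log2 FC -1.44), whereas Txnip, an inhibitor of thioredoxin and of glucose uptake that glucose itself induces, was higher at 0.61 (SE 0.06).

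Genes of ribosome assembly were lower, whereas ribosomal protein genes went both ways. All 26 genes of the Myc and ribosome biogenesis list were called lower, with a median log2 FC of -0.77. Polr1b, a subunit of RNA polymerase I, lay at 37.2 and 38.2 CPM in experiment 1 and 14.7 and 13.8 CPM in experiment 2 (log2 FC -1.40, SE 0.09, adjusted p = 8.99e-58). Dkc1, which modifies ribosomal RNA, lay at 116 and 107 CPM in experiment 1 and 43.2 and 45.6 CPM in experiment 2 (log2 FC -1.33, SE 0.07, adjusted p = 3.41e-87). Myc itself fell less, from 133 and 142 to 99.1 and 120.5 CPM (log2 FC -0.33), and was not past the threshold without the sgNT column of experiment 2. The E-box CACGTG was in 5 of 20 matched genes of this list (25%) and in 11.8% of tested genes with a window (7.15% of all windows), and it contains the ACGTG core. Dkc1 had no E-box match in its window. Of 48 ribosomal protein genes 21 were higher and 7 lower, with a median of 0.14 (0.055 when sgElovl1 of experiment 1 was left out and 0.222 with upper-quartile factors) and log2 FC from -0.65 to 0.87, and these counts ran from 11 to 26 and from 4 to 15 with each column left out in turn (11 and 4 if sgElovl1 of experiment 2 is dropped, 12 and 4 if sgNT of experiment 2 is, and 15 lower if sgElovl1 of experiment 1 is). At a mean of at least 5 CPM the extremes were Rpl23 (0.76) and Rpl27 (-0.65).

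Protein folding genes were lower as well. Of 16 chaperones 14 were called lower (87.5%) and none higher (median -0.67). Hsp90aa1, the inducible cytosolic HSP90, lay at 1084 and 899.7 CPM in experiment 1 and 224 and 206 CPM in experiment 2 (log2 FC -2.20, SE 0.07, adjusted p = 3.59e-208). The mitochondrial chaperones Hspa9 and Hspd1 fell 2.99-fold and 2.83-fold. Hspa8, the constitutive HSP70, lay at 4098 and 3707 CPM in experiment 1 and 3707 and 3831 CPM in experiment 2 and was not called (log2 FC -0.05, adjusted p = 0.65). Of 20 genes of the unfolded protein response 15 were lower (75.0%) and 3 higher (median -0.81), and the lower ones included the folding enzymes Pdia6 (-1.37) and Pdia3 (-1.23) and the lectins Canx (-1.24) and Calr (-1.23).

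Cycling genes were unevenly changed. For G1 and S phase 33 of 35 genes were called lower (94.3%), with a median log2 FC of -0.73, and 8 were at least 2-fold lower in both guides. Mcm2, a subunit of the helicase that opens replication origins, lay at 201 and 194 CPM in experiment 1 and 80.8 and 75.8 CPM in experiment 2 (log2 FC -1.34, SE 0.06, adjusted p = 6.37e-99). Cdc6, which loads that helicase, lay at 70.8 and 67.0 CPM in experiment 1 and 28.8 and 28.2 CPM in experiment 2 (log2 FC -1.27, SE 0.07, adjusted p = 1.41e-68). Pcna, the sliding clamp, lay at 445 and 408 CPM in experiment 1 and 227 and 219.9 CPM in experiment 2 (log2 FC -0.93, SE 0.06, adjusted p = 5.12e-49). In each, every column of experiment 1 stood above every column of experiment 2. E2f2 (0.66), a transcription factor of S phase genes, was called higher, and Cdt1 (0.06, adjusted p = 0.385) was not called. Histone genes that are expressed in S phase were lower in 9 of 14 cases and higher in none, led by the linker histones H1f1 (-1.78) and H1f4 (-1.51). The histone list summed to only 179 and 161 CPM of the column total in experiment 1 and 94.9 and 103 CPM in experiment 2. How much of such RNA the mRNA libraries captured was not tested.

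For G2 and mitosis the differences were smaller, with 21 of 31 genes lower (67.7%), 5 higher, a median of -0.23 (-0.154 with upper-quartile factors) and none at least 2-fold in both guides. Mki67, the proliferation marker, lay at 1255 and 1202 CPM in experiment 1 and 1278 and 1238 CPM in experiment 2, values that overlap between the experiments (log2 FC 0.03, adjusted p = 0.703). Top2a, the topoisomerase that untangles replicated DNA, was at -0.27 (SE 0.07, adjusted p = 0.000216) and lost its call with either column of experiment 2 left out. Cdk1, the kinase of mitotic entry, had the largest difference (-0.74, SE 0.06), while Cdc25b, which activates it, was higher (0.52, SE 0.06). The count of lower genes was 11 without the sgNT column of experiment 2. Whether the G1 and S phase list differs from the G2 and mitosis list was not tested.

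Inhibitors of the cycle and p53 targets went both ways, with 10 of 20 higher and 6 lower and a median of 0.13 that ran from -0.0133 to 0.212 over the settings tried. Cdkn1a, which encodes p21, lay at 85.1 and 78.8 CPM in experiment 1 and 23.6 and 22.7 CPM in experiment 2 (log2 FC -1.82, SE 0.07, adjusted p = 2.85e-135). Cdkn2b, which encodes p15, was lower too (-1.67). Bbc3, which encodes the death protein PUMA, lay at 28.8 and 30.3 CPM in experiment 1 and 107 and 108 CPM in experiment 2 (log2 FC 1.87, SE 0.07, adjusted p = 1.65e-156). Both Cdkn1a and Bbc3 are p53 targets, and they stood apart in opposite directions with no overlap of columns. Btg1, an antiproliferative gene of resting lymphocytes, rose 2.0-fold.

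**Figure D3:**
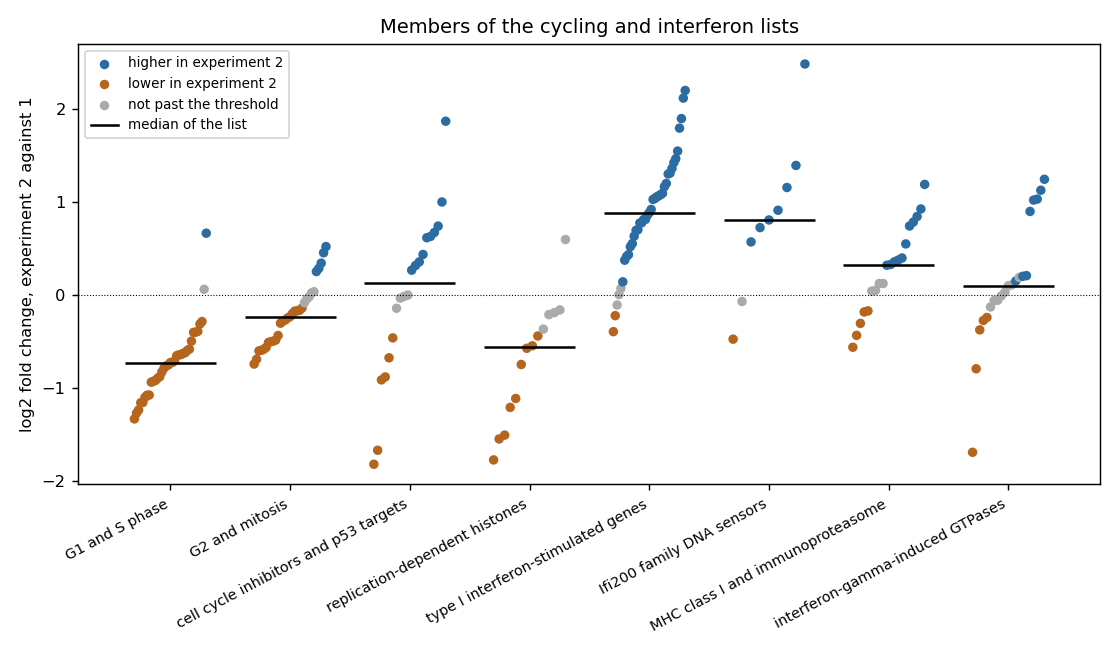
Log2 fold change of each tested member of 4 cycling lists and 4 interferon-linked lists, with blue and brown for called genes, grey for genes not past the threshold and a black bar at the list median. The G1 and S phase list centres at -0.73 against -0.23 for G2 and mitosis, and the type I interferon-stimulated list at 0.89 against 0.10 for the interferon-gamma-induced GTPases.

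Memory genes were higher in experiment 2. Of 22 members of the memory and stem-like list 18 were called higher (81.8%), 2 lower and the rest not called, with a median log2 FC of 1.08 and 11 at least 2-fold higher in both guides. Tcf7, the transcription factor TCF1 of naive and stem-like T cells, lay at 204 and 237 CPM in experiment 1 and 574 and 604 CPM in experiment 2 (log2 FC 1.42, SE 0.06, adjusted p = 2.4e-104). Slamf6, a surface marker of stem-like cells, lay at 24.4 and 31.4 CPM in experiment 1 and 77.7 and 90.4 CPM in experiment 2 (log2 FC 1.60, SE 0.07, adjusted p = 7.37e-110). In each gene every column of experiment 2 exceeded every column of experiment 1. Bcl6, a transcriptional repressor of memory and follicular T cells, rose 4.6-fold from a low level (2.22 and 2.96 CPM in experiment 1 and 12.4 and 11.3 CPM in experiment 2), and Il6ra, the receptor for IL-6, rose 3.72-fold. Il7r, the receptor subunit for IL-7, rose 1.98-fold, from 18.5 and 22.3 to 40.0 and 40.4 CPM, and Ccr7, which guides cells to lymph nodes, moved less (log2 FC 0.58). The 2 members called lower were Eomes (-0.63), a T-box factor of memory and effector cells, and Bcl2 (-0.49), which keeps memory cells alive, and Zeb1 and Ly6c2 were not called.

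Genes of lymphoid trafficking moved with them. Klf2, the factor that drives S1pr1, lay at 65.5 and 81.1 CPM in experiment 1 and 159.6 and 173 CPM in experiment 2 (log2 FC 1.19, SE 0.06, adjusted p = 1.34e-78), and S1pr1, the receptor for exit from lymph nodes, lay at 51.3 and 54.8 CPM in experiment 1 and 131 and 139 CPM in experiment 2 (log2 FC 1.34, SE 0.06, adjusted p = 1.41e-94). Of 22 chemokine receptor, adhesion and trafficking genes 13 were higher (59.1%) and 5 lower, with a median of 0.24 (3 lower without sgElovl1 of experiment 2), and this list shares S1pr1, Ccr7 and Cxcr3 among others with the memory list. Itga4, an integrin subunit, rose 3.08-fold, and Ccr4, a chemokine receptor of activated T cells, fell 2.66-fold.

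Effector genes had no common direction, and all 4 chemokine members of the list were higher. Gzmb, granzyme B, lay at 2462 and 2455 CPM in experiment 1 and 610.3 and 615 CPM in experiment 2 (log2 FC -2.00, SE 0.08, adjusted p = 5.71e-133). Prf1, the pore protein perforin, lay at 30.5 and 24.7 CPM in experiment 1 and 14.6 and 12 CPM in experiment 2 (log2 FC -1.05, SE 0.09, adjusted p = 6.02e-28). Gzmc and Tnf were lower by log2 FC of -1.40 and -1.30. Every column of experiment 1 exceeded both of experiment 2 in these genes. Ccl5, a chemokine typical of memory CD8 T cells, lay at 7.17 and 7.9 CPM in experiment 1 and 28.9 and 28.4 CPM in experiment 2 (log2 FC 1.93, SE 0.10, adjusted p = 1.94e-74), and Ccl3, Ccl4 and Xcl1 had log2 FC of 2.33, 0.96 and 0.76. Cytotoxic exceptions were Gzmm (0.80) and Ctsw (0.49), which were higher. Over the list 8 of 20 genes were higher and 9 lower, with a median of -0.45. Ifng, the interferon of activated T cells, was barely expressed and lay at 1.77 and 1.71 CPM in experiment 1 and 0.787 and 1.72 CPM in experiment 2 (adjusted p = 0.16).

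Receptors of activation and restraint had no single direction. Tnfrsf9, the costimulatory receptor 4-1BB that is induced after activation, lay at 231 and 195 CPM in experiment 1 and 47.3 and 42.1 CPM in experiment 2 (log2 FC -2.25, SE 0.06, adjusted p = 7.94e-250). Il2ra, the high-affinity IL-2 receptor subunit, lay at 326 and 327 CPM in experiment 1 and 196 and 194 CPM in experiment 2 (log2 FC -0.74, SE 0.06, adjusted p = 1.73e-32), and Tfrc, the transferrin receptor, was lower at -1.02. Over the costimulatory list 7 of 15 genes were higher and 7 lower (median -0.07, from -0.177 to 0.0865 over the settings), and the counts fell to 3 and 4 once sgNT of experiment 2 was left out, and to 4 and 4 once sgElovl1 of experiment 2 was. Among co-inhibitory receptors 7 of 15 were higher and 7 lower (median 0.11, from 0.0793 to 0.293 over the settings, with 0.188 when sgElovl1 of experiment 2 was left out). Btla and Ctla4 rose 3.09-fold and 2.18-fold, while Havcr2, which encodes TIM-3, and Cd244a fell 2.73-fold and 3.07-fold. Of 22 cytokine receptor and feedback genes 13 were higher and 6 lower (median 0.29). Il4ra (0.99), Socs3 (1.02) and Ifnar2 (1.04), a subunit of the type I interferon receptor, were higher, and Cish, an inhibitor that IL-2 signalling induces through STAT5, was lower (222 and 233 CPM in experiment 1 and 103 and 99.6 CPM in experiment 2, log2 FC -1.17).

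The early response to the T cell receptor was mixed, with 10 of 26 genes higher and 8 lower (median 0.22, or 0.127 without sgNT of experiment 2), and 5 lower without sgElovl1 of experiment 2. Fosb, a subunit of the factor AP-1, lay at 3.92 and 5.66 CPM in experiment 1 and 29.6 and 19.5 CPM in experiment 2 (log2 FC 2.35, SE 0.12, adjusted p = 4.65e-83), with log2 ratios of 2.91 in sgNT and 1.78 in sgElovl1. Egr1, a factor induced by the receptor through MAP kinases, lay at 141 and 116 CPM in experiment 1 and 67.5 and 31.2 CPM in experiment 2 (log2 FC -1.46, SE 0.07, adjusted p = 3.55e-107), with the lowest value in sgElovl1 of experiment 2. Tnfaip3, which restrains NF-kB, rose 3.0-fold, and Spred1, which restrains MAP kinase signalling, fell 3.18-fold. Among effector and exhaustion transcription factors 5 of 18 were higher (2 without sgNT of experiment 1, 3 without either column of experiment 2) and 7 lower (median -0.07, from -0.0851 to 0.024 over the settings), with Batf higher (0.83) and Irf8 (-1.09), Maf (-0.84) and Bhlhe40 (-0.83) lower.

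**Figure D4:**
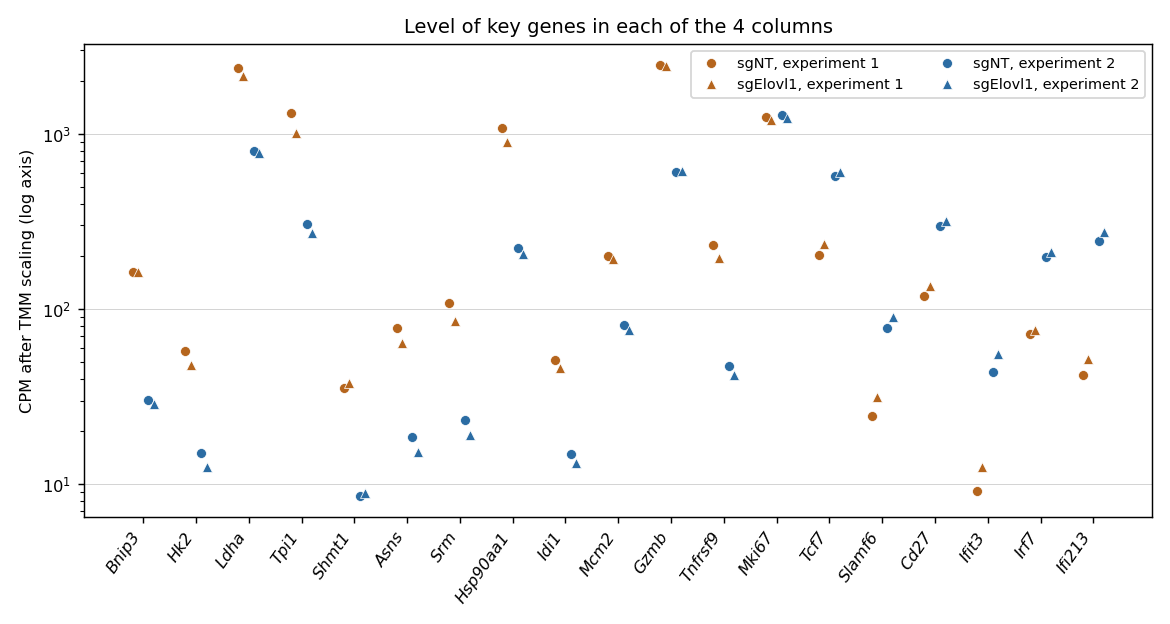
Level of 19 genes in CPM after TMM scaling on a log axis, with experiment 1 in brown, experiment 2 in blue, circles for sgNT and triangles for sgElovl1, 1 point per column. From Bnip3 to Tnfrsf9 both columns of experiment 1 lie above both of experiment 2, from Tcf7 to Ifi213 they lie below, and the points of Mki67 overlap.

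Interferon-stimulated genes were higher in experiment 2, and the study's methods name no interferon among the culture additions. Of 39 tested members of the type I list 34 were called higher (87.2%) and 2 lower, with a median log2 FC of 0.89 and 15 at least 2-fold higher in both guides. Ifit3, an antiviral protein that binds foreign RNA together with other IFIT proteins, lay at 9.16 and 12.5 CPM in experiment 1 and 43.5 and 55.6 CPM in experiment 2 (log2 FC 2.20, SE 0.08, adjusted p = 1.99e-144). Irf7, the transcription factor that amplifies the response, lay at 72.2 and 76.1 CPM in experiment 1 and 198 and 211 CPM in experiment 2 (log2 FC 1.46, SE 0.06, adjusted p = 4.86e-118). Isg15, a ubiquitin-like modifier, lay at 8.46 and 8.12 CPM in experiment 1 and 21.4 and 23.1 CPM in experiment 2 (log2 FC 1.42, SE 0.11, adjusted p = 1.22e-36). Each was low in both columns of experiment 1 and higher in both of experiment 2. Ifi27l2a, another interferon-induced gene, lay at 81.4 and 89.7 CPM in experiment 1 and 314 and 322 CPM in experiment 2. The upstream factors Stat2 (0.92) and Irf9 (0.81) were higher. The 2 members called lower were Isg20 (-0.40) and Eif2ak2 (-0.22), and Bst2 and Ifi35 were not called.

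The Ifi200 family, DNA sensors that interferon induces, was higher in 7 of 9 tested members and lower in 1, Ifi204 (median 0.81). Ifi213 lay at 41.8 and 51.8 CPM in experiment 1 and 246 and 275 CPM in experiment 2 (log2 FC 2.48, SE 0.06, adjusted p = 3.82e-303), 1 of the 12 largest increases at a mean of at least 5 CPM. Mndal lay at 159 and 211 CPM in experiment 1 and 447 and 519 CPM in experiment 2 (log2 FC 1.39, SE 0.06, adjusted p = 1.14e-104). Reads of Ifit3 and Ifit3b, and of Ifi200 members, can match more than 1 copy, so that the split between such paralogs is uncertain. Genes induced by interferon-gamma went both ways. Of 21 such GTPases and regulators 8 were higher and 5 lower (median 0.10, from -0.0381 to 0.18 over the settings), with 5 higher once sgNT of experiment 1 or sgElovl1 of experiment 2 was left out, 2 lower once sgElovl1 of experiment 1 was, and 3 lower once sgNT of experiment 2 was. Gbp9 (1.24) and Gbp8 (1.13) were higher with Irf1 (1.03), while Gbp2 lay at 67.8 and 88.2 CPM in experiment 1 and 80.1 and 86.9 CPM in experiment 2 and was not called (adjusted p = 0.122). Over this list the log2 FC ran from -1.69 to 1.24, so that its largest fall exceeded its largest rise in size. In MHC class I and the immunoproteasome 11 of 20 were higher and 5 lower (median 0.32), and the count of lower genes was 3 without sgNT of experiment 1 or without either column of experiment 2. The class I chain H2-K1 lay at 1627 and 1825 CPM in experiment 1 and 2484 and 2554 CPM in experiment 2 (log2 FC 0.55, SE 0.08, adjusted p = 7.97e-11), and the peptide transporter genes Tap1 and Tap2 had log2 FC of 0.78 and 0.92. Of 7 interferon genes 6 (Ifna1, Ifna2, Ifna4, Ifnb1, Ifnl2 and Ifnl3) had no count in any column.

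The promoters of Ifit3, Isg15 and Ifi213 are shown because STAT2 and IRF9 act on the interferon-stimulated response element, searched as GAAA, any 2 bases and GAAA again on both strands and printed in capitals. Matches on the other strand read TTTC, any 2 bases and TTTC, and those of Isg15 overlap. The windows are chr19:34583279-34583578, plus strand for Ifit3, chr4:156200769-156201068, minus strand for Isg15, and chr1:173599223-173599522, minus strand for Ifi213.
Ifit3: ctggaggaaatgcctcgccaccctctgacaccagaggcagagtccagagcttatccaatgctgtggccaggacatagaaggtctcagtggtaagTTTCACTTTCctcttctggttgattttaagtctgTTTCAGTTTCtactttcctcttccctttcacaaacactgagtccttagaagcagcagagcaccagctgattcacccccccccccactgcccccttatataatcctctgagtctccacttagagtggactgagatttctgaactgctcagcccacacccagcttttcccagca
Isg15: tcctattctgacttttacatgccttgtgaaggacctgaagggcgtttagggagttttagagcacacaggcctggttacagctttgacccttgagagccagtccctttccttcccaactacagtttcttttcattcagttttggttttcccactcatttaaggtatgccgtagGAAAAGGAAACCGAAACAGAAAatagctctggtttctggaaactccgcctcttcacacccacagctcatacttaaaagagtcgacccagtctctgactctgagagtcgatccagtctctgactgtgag
Ifi213: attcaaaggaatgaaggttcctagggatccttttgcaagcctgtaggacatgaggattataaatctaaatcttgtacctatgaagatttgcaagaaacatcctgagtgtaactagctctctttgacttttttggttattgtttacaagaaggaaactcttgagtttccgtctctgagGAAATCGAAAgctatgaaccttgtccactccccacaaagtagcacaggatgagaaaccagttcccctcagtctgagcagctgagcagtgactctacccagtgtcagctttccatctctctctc
Ifit3 held 2 matches, Isg15 held 3 and Ifi213 held 1, all upstream of the start. Of 39 tested type I genes 28 matched a window by symbol and 17 of these (60.7%) held the element, and of 9 tested Ifi200 genes 8 matched and 6 (75%) held it. The element was in 3.84% of tested genes with a window and in 3.44% of all windows. Among the 352 tested genes with the element 39.2% were called higher and 32.7% lower (median log2 FC 0.06), beside 32% and 37.5% (median -0.04) of all tested genes with a window. Irf7 had no match in its window, which says only that these letters are not there.

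**Figure D5:**
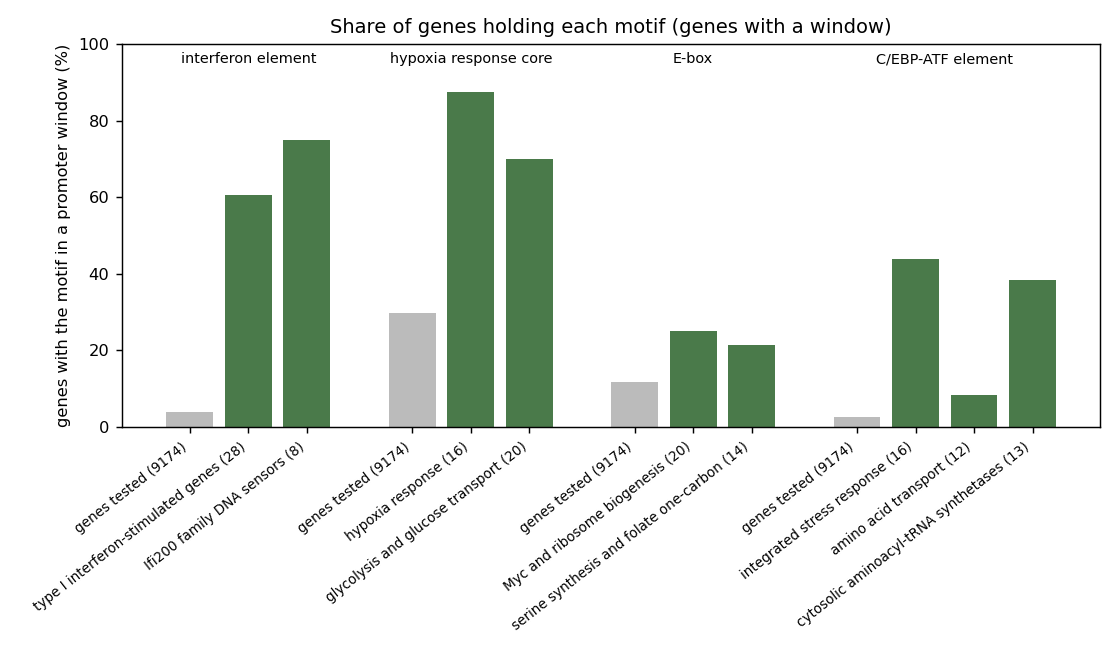
Share of genes (%) with each of 4 motifs in at least 1 promoter window, with grey bars for all 9174 tested genes that have a window and green bars for the gene lists, and the number of genes with a window in brackets. The interferon element is in 60.7% and 75% of the interferon lists against 3.84% of tested genes, and the E-box in 25% and 21.4% of its lists against 11.8%.

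The largest differences at a mean of at least 5 CPM lay partly outside the programmes. Among the 12 largest increases Slc15a2, a transporter of small peptides, lay at 1.26 and 1.8 CPM in experiment 1 and 16.1 and 18.2 CPM in experiment 2 (log2 FC 3.50, SE 0.16, adjusted p = 2.47e-96). Aadacl2fm2 had the largest log2 FC of these, at 4.15 (SE 0.16), with 0.98 and 1.4 CPM in experiment 1 and 18.3 and 24.1 CPM in experiment 2. Kcna2, a voltage-gated potassium channel, rose 7.09-fold, Atp1b1, the beta subunit of the sodium pump, 5.72-fold, and Slc28a2b, of a nucleoside transporter family, 6.41-fold. Ifngas1, a long noncoding RNA beside Ifng, rose 6.4-fold while Ifng was not called. Tbx6, Frat2 and Spo11, with log2 FC from 2.35 to 2.45, the hairpin gene Mir142b (2.99) and the genes Ifi213 and Fosb given above complete that set.

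Among the 12 largest decreases Il10, the regulatory cytokine, lay at 12.1 and 15.1 CPM in experiment 1 and 1.66 and 2.05 CPM in experiment 2 (log2 FC -2.88, SE 0.18, adjusted p = 4.43e-58). Tubb6, a beta-tubulin, lay at 38.1 and 31.8 CPM in experiment 1 and 5.81 and 4.68 CPM in experiment 2 (log2 FC -2.74, SE 0.10, adjusted p = 8.43e-146). Eif5b, a translation initiation factor that joins ribosomal subunits, lay at 436 and 361 CPM in experiment 1 and 95.2 and 75.3 CPM in experiment 2 (log2 FC -2.23, SE 0.06, adjusted p = 1.21e-250). All 3 were lower in both columns of experiment 2. The actin regulators Enah and Spire1 fell 6.87-fold and 5.48-fold, and Mgarp, a mitochondrial protein, 4.63-fold. Dnm1, a dynamin, had log2 ratios of -1.69 in sgNT and -3.37 in sgElovl1. Mir6236, a short hairpin gene, had the largest log2 FC of these (-3.74), and Ak4, Bnip3, Tnfrsf9 and Hsp90aa1 complete the set. Per the study's methods the libraries were made from mRNA, so counts at Mir6236 and Mir142b are not a measure of mature microRNA. Which RNA gave these counts was not tested.

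Long noncoding RNAs were called higher more often than lower. Of 508 tested long noncoding RNAs 240 were called higher (47.2%) and 48 lower (9.45%), with a median log2 FC of 0.53, beside 31.4% and 38.8% of 10751 protein-coding genes with a median of -0.06. The lean was not particular to them. The 794 tested genes without a match in the RefSeq table had 47.5% higher and 10.6% lower (median 0.503). Of 401 pseudogenes 26.4% were higher and 14.2% lower. Neat1, the RNA that scaffolds nuclear paraspeckles, lay at 114 and 126 CPM in experiment 1 and 242 and 295 CPM in experiment 2 (log2 FC 1.15, SE 0.06, adjusted p = 1.11e-76). Malat1, another abundant nuclear RNA, lay at 90.9 and 89.8 CPM in experiment 1 and 96.7 and 83.3 CPM in experiment 2 and was not called (adjusted p = 0.91). Counts were taken over introns as well as exons, so unspliced RNA enters these values, and its share was not tested.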

How the data were processed

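RNA of sorted CD90.1+ OT-I cells was sequenced as strand-specific libraries. The submitters' processing notes name STAR 2.7.10b, featureCounts 2.0.1 and the mouse build GRCm39 (mm39). The authors counted over whole genes, introns included, in reverse-stranded mode, with R 4.3.3 and DESeq2 1.42.0 for their own tests. The deposited values are raw counts per gene, and each of the 4 columns holds the sum of 2 replicates. How reads with several alignments were treated is not given in the sources used here, so that paralogs (Ifit3 and Ifit3b, the Ifi200 family, Tgtp1 and Tgtp2, the H2-Q genes) and mitochondrial genes with nuclear copies are uncertain. CD90.1 is an allele of Thy1, so counts of Thy1 may hold reads of the reporter.

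Genes with at least 1 CPM in at least 2 columns were kept. edgeR 4.0.16 (TMM, quasi-likelihood test, guide and experiment as terms) was run in R 4.3.3 with Benjamini-Hochberg adjustment over all genes tested. The pipeline was tested on simulated data with known fold changes. There only a small part of the genes was changed, equally in both directions, with the spread estimated from these data. That simulation cannot show how the test behaves where most genes are called, nor the spread between repeated experiments. Alternatives were other scaling factors, other filters on low counts, DESeq2 1.42.0 (Wald and likelihood-ratio tests), limma 3.58.1 (voom), experiment as the only term, and leaving out each column. Because the replicates are summed, p-values measure how far the 2 guides disagree on the experiment difference, pooled over genes. They do not measure the spread between repeated experiments, and the 2 columns of an experiment are not independent repeats of it. A single column cannot show the spread between mice.

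Genes were named by a rule: a set of state markers, the 12 largest changes in each direction at a mean of at least 5 CPM with the same direction in both guides and an assigned name, and up to 4 called members with the largest change at that level from each list. Some genes that the rule names are not reported here. Other list members named in the text or in a plot were chosen after their values were seen. The members compared and the gene lists were chosen with earlier results of these data known. Promoter windows are from a RefSeq table of build GRCm38.p6, matched by symbol, and no coordinate was moved between builds.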

Additional observations from a re-analysis of the deposited data

Results flagged for a closer look

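Among the genes named, 2 that were not called had ratios of experiment 2 to experiment 1 that pointed in opposite directions in the guides, each guide being 1 column per experiment, and the difference between the guides was not tested. Ifng had a log2 ratio of -1.14 in the sgNT columns and 0.01 in the sgElovl1 columns. Gbp2 had 0.24 in sgNT and -0.02 in sgElovl1.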

How the results depend on the processing

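Called genes numbered from 3000 to 4620 higher and from 3153 to 4379 lower over the settings, with the lowest counts without the sgElovl1 column of experiment 2. Upper-quartile factors moved the median of all genes to 0.0724 and the share of calls that were higher from 48.5% to 55.5% (4620 higher and 3699 lower). A filter at a mean of 5 CPM, which tests fewer genes, left 408 genes higher and 319 lower at a fold of at least 2 in both guides, against 699 and 560. With a column left out its guide has no ratio, so the rule of both guides could not be applied and no such count is given. Called members changed by more than 1.5 times as follows, and the cause was not tested. The integrated stress response had 7 lower under that filter (11 otherwise). Upper-quartile factors left 4 lower costimulatory receptors (7) and 3 lower MHC class I genes (5). Effector and exhaustion transcription factors had 3 higher (5) under both DESeq2 tests and with experiment as the only term, and interferon-gamma-induced GTPases 5 higher (8) under these and with no filter.

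Leaving out each column in turn gave 5 to 13 mitochondrially encoded genes higher, 5 to 8 fatty acid oxidation genes lower, 5 to 8 polyamine genes lower, 11 to 26 ribosomal protein genes higher and 4 to 15 lower, and 11 to 19 G2 and mitosis genes lower. It gave 2 to 5 effector and exhaustion factors higher, 3 to 6 costimulatory receptors higher and 4 to 6 lower, 5 to 8 T cell receptor-induced genes lower, 3 to 5 trafficking genes lower, 5 to 8 GTPases higher and 2 to 5 lower, and 3 to 5 MHC class I genes lower. Elovl1 (log2 FC -0.17) ran from -0.57 to 0.29 and reversed, to 0.29 without sgNT of experiment 1 and 0.17 without sgElovl1 of experiment 2, where 3 columns leave the guides unequal between the experiments and the fit has experiment as its only term.

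No paired analysis was possible because each column sums the replicates of its group, so that no replicate number remains. At these depths a count of 0 allows up to 0.0611 CPM.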

Other observations

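The gene lists in this section were chosen after the data had been seen, and their counts are given as a description. Of 31 proteasome subunit genes all 31 were called lower in experiment 2, with a median log2 FC of -0.72. Of 23 genes of nucleotide synthesis 22 were lower and 1 higher (median -0.99), and 11 were at least 2-fold lower in both guides. Of 20 cytosolic aminoacyl-tRNA synthetases, which charge tRNA with amino acids, 18 were lower and 1 higher (median -0.76), and 5 of the 13 with a promoter window (38.5%) held TGATGNAA.

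Of 19 genes linked to quiescence and to the FoxO factors 14 were higher and 1 lower, with a median of 0.63. Lysosome genes had no common direction, with 13 of 28 higher and 11 lower (median 0.04).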
